A study of Mus musculus with 19 samples.

Results

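Immediate early genes are transcribed within minutes of a growth factor, stress or calcium signal, without new protein synthesis, and their transcripts decay quickly. Many encode transcription factors: Fos proteins pair with Jun to form AP-1, Egr proteins are zinc finger activators, and Nr4a1 (Nur77) is an orphan nuclear receptor. Others limit the response, such as Zfp36 (tristetraprolin), which binds AU-rich elements and speeds mRNA decay, and Btg2, an antiproliferative protein that recruits the deadenylase complex. In the heart and its vessels these genes are known to respond to growth factors, mechanical load and flow.

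Followed here are 10 of these genes, Fos, Fosb, Jun, Egr1, Egr4, Nr4a1, Btg2, Klf6, Ier5 and Zfp36, out of 4213 genes that the authors' tables list at any day. They were matched by symbol, and each of the 10 was found, with 1 entry per table. The genes were selected on the deposited log2 ratios of these same tables, so their values are given as a description, with no test.

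The cells were P19CL6, a mouse embryonal carcinoma line that can form beating heart muscle, sampled at days 4, 7, 10 and 14 of differentiation and set against day 1. There were 4 libraries at each of the later days and 3 at day 1. The titles number the replicates 1 to 4, and replicate 2 has no day 1 library. Each fold thus sets a later mean that holds replicate 2 against a day 1 mean that lacks it. The labels name 1 cell line and give no genotype, inducing agent or separate cultures for the libraries. No culture from before day 1 is among the samples, and whether the day 1 cells were still undifferentiated was not tested. RNA was measured by tag profiling, in which each transcript is counted once by a short tag, so transcript length does not enter a level. The mean library of a day held about 5720000 to 5960000 tags. Levels are the authors' means of a day in TPM, tags relative to the library total, and values of single libraries were not analysed here. The spread between libraries, and whether 1 library carries a day's mean, therefore cannot be seen. Folds are of summed tags, later day over day 1, and bracketed ranges are exact 95% intervals (Clopper-Pearson for folds, Poisson for levels) that cover counting error only. A gene has a value for a later day only where that day's table lists it, and every listed difference is at least 2-fold. Absence from a table does not show that a gene was unchanged.

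The identity of the cultures was checked by markers. Of 10 markers of undifferentiated cells, 4 were listed at day 14, each lower, with a summed 207 TPM against 2314 TPM at day 1. Of 10 cardiomyocyte markers, 8 were listed at day 14, each higher, with a summed 556 TPM against 0.120 TPM at day 1. None of the 10 was listed at day 4. In such bulk cultures, more RNA per cell and more cells of a type cannot be told apart.

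RefSeq promoter windows (build GRCm38.p6, 250 bases before to 50 after the start) were matched by symbol for 9 of the 10 genes; Egr1 is named only. The 180 bases before the start are shown for the 6 genes whose window held a motif searched. They lie at chr12:85473710-85473889 (+ strand) for Fos, chr7:19310046-19310225 (- strand) for Fosb and chr15:101266666-101266845 (+ strand) for Nr4a1. They lie at chr6:85513590-85513769 (- strand) for Egr4, chr1:134079156-134079335 (- strand) for Btg2 and chr7:28379229-28379408 (- strand) for Zfp36. Sequences run 5′ to 3′ on the gene's strand, and capitals mark the motifs found on either strand within them.
Fos: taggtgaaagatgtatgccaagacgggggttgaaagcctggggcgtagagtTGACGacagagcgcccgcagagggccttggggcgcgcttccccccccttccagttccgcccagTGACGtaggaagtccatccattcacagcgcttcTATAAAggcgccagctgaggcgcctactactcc
Fosb: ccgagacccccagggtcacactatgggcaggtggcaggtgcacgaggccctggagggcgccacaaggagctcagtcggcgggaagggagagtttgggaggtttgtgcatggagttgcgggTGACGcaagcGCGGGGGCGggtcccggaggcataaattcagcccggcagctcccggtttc
Nr4a1: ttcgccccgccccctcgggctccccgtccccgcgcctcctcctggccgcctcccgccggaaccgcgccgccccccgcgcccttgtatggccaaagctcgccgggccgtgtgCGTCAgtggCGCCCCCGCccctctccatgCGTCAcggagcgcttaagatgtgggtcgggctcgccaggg
Egr4: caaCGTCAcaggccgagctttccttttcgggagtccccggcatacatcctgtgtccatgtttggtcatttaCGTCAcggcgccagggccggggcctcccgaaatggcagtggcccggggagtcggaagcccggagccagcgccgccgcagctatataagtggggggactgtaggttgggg
Btg2: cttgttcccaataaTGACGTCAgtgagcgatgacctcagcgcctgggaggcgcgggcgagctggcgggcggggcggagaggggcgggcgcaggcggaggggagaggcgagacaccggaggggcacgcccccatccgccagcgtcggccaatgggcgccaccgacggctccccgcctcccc
Zfp36: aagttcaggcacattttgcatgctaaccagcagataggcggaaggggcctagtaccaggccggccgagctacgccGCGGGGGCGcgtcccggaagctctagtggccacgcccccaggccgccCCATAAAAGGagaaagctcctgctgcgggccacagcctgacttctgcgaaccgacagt

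The cAMP response element TGACGTCA was found in the Btg2 window, 166 to 159 bases before the start, and in 1.79% of all 32851 windows of the table. Its core TGACG, which the full element contains, was found in 5 of the 9 windows (Fos, Fosb, Egr4, Nr4a1 and Btg2) and in 20.8% of all windows. In the Fos window it lay 129 and 66 bases before the start, ahead of a TATA box (TATAAA) whose first base lay 33 bases before it. The TATAAA motif was found in 1 of the 9 windows and in 13.6% of all windows. The EGR site GCGGGGGCG was found in 3 of the 9 windows (Fosb, Nr4a1 and Zfp36) and in 2.91% of all windows. In the Nr4a1 window it lay between TGACG cores whose first bases were 69 and 40 bases before the start, and 2 more cores lay upstream of the bases shown. A CArG box, the motif of serum response factor, was found in the Zfp36 window, 58 to 49 bases before the start, and in 1.63% of all windows. The AP-1 site TGACTCA was found in 0 of the 9 and in 5.20% of all windows. The windows of Jun, Klf6 and Ier5 held none of these letters, which says nothing of sites outside the window. Both strands were searched, and a match is a string of letters, not a site shown to be bound.

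At day 10 each of the 10 genes was listed as higher than at day 1, whereas at the other later days 3, 5 and 5 of them were listed. In the authors' deposited table for day 10, 10 were higher and 0 lower, where 40.2% and 14.2% of the 4213 genes were listed as higher and lower. At day 4, 1 was higher and 2 were lower, against 21.3% and 20.9% of all genes. At day 7, 4 were higher and 1 was lower, against 25.9% and 14.9%. At day 14, 5 were higher and 0 lower, against 49.8% and 17.2%. Since the genes were chosen from these tables, nothing is read from the counts. The 10 genes together held 734 TPM at day 10, against 127 TPM at day 1. Their median deposited log2 ratio at day 10 was 3.02, where that of all 2290 listed genes was 1.49. The latter includes 597 genes listed as lower, and none of the 10 is among them. Among the 1693 higher genes alone, the ratio of Zfp36, 1.87, ranked 874, just below the middle. The median of the 10 is the same with Egr4, at 0 tags at day 1, set to its lower bound.

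**Figure D1:**
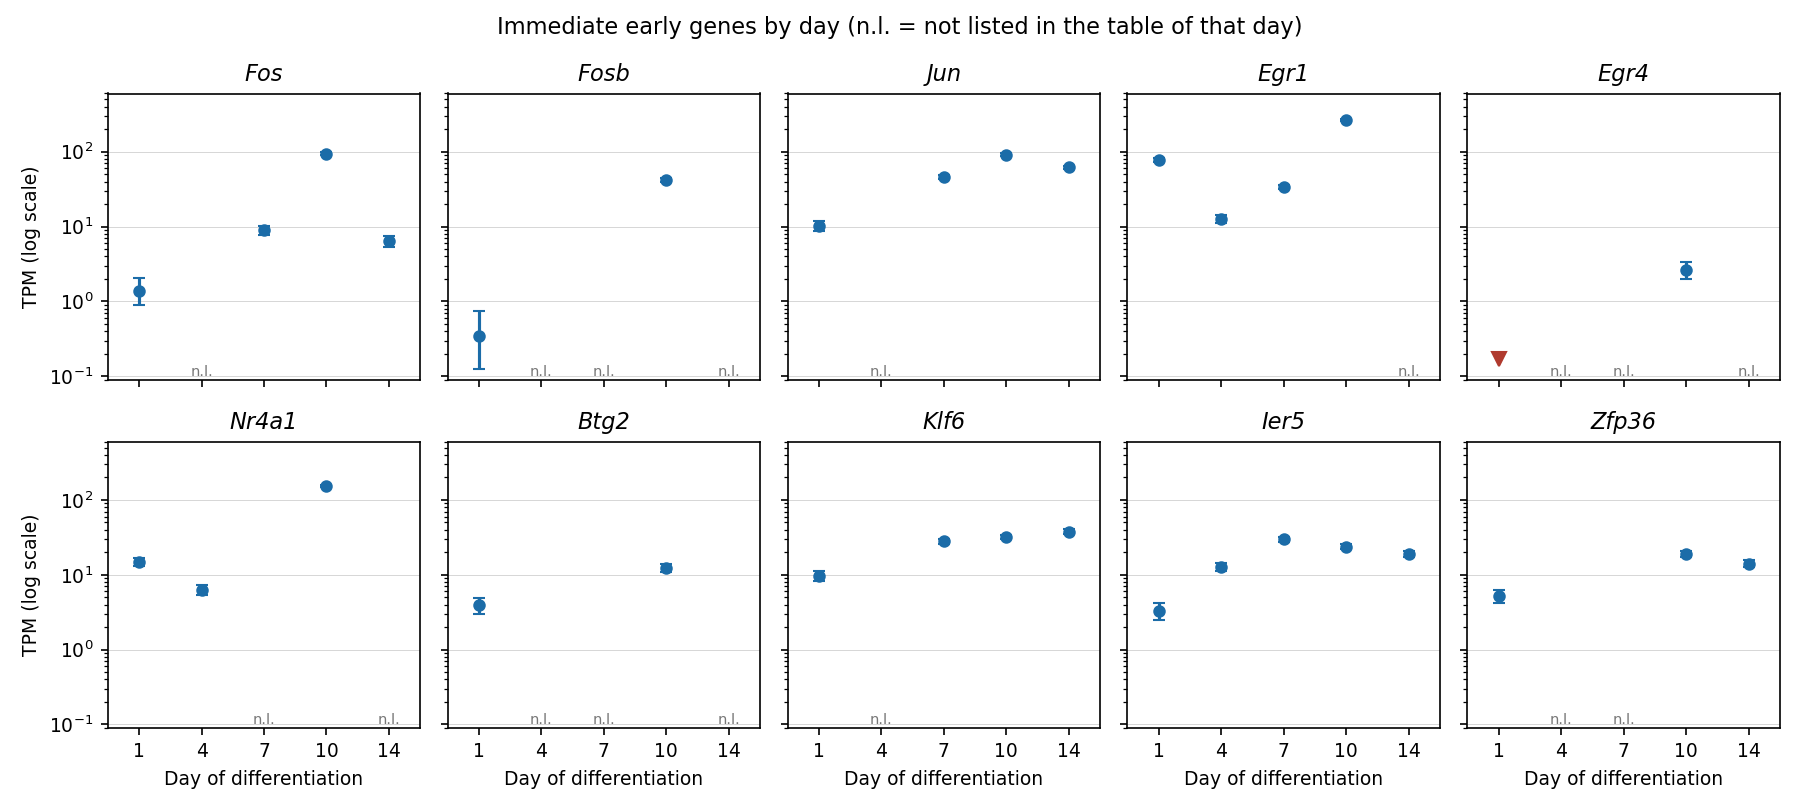
TPM (log scale) of each of the 10 genes at days 1, 4, 7, 10 and 14, as the authors' mean of a day, with exact Poisson 95% intervals of the summed tags; n.l. marks a day whose table does not list the gene, and the triangle marks 0 tags, drawn at the floor of 3 tags (0.172 TPM). Fos stands at 94.4 TPM at day 10 and 6.38 TPM at day 14, while Klf6 and Ier5 stay between 19.0 and 37.8 TPM from day 7 on.

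Fos (Entrez Gene 14281), the AP-1 subunit that is the standard marker of an immediate early response, had its highest listed level at day 10. It stood at 1.38 TPM at day 1, 8.99 TPM at day 7, 94.4 TPM at day 10 and 6.38 TPM at day 14, and was not listed at day 4. Its summed tags were 24, 210, 2161 and 152 on those days. The day 10 level was 68.5-fold higher than day 1 (45.9 to 107), while days 7 and 14 were 6.53-fold (4.27 to 10.4) and 4.63-fold (3.00 to 7.45) higher than day 1. Day 10 was high against both of its neighbours. It was 10.5-fold above day 7 (9.11 to 12.2), and day 14 was 14.8-fold below day 10 (12.6 to 17.6). Among 1589 genes listed at both days 10 and 14 with at least 100 tags at day 10, Fos stood furthest below its day 10 level. This comparison was made after its values were seen. Genes not listed at day 14, such as Fosb, Egr1 and Nr4a1, could not enter it. Some of them, such as Fosb and Nr4a1, may have stood further below.

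Fosb (14282), a Fos paralog that also pairs with Jun, was listed at day 10 and at no other day. It stood at 41.6 TPM (39.0 to 44.3) at day 10, against 0.34 TPM (0.126 to 0.750) at day 1. These were 952 tags at day 10 and 6 tags at day 1, so the fold of 121 (55.3 to 330) has a wide counting interval. Its deposited log2 ratio ranked 201 of the 1693 higher genes at day 10, and that of Fos ranked 224. The ratios of Zfp36, Egr1, Klf6 and Btg2 ranked 874, 941, 977 and 1014, below the middle of that order.

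Jun (16476), the AP-1 subunit that can also pair with itself, had a broader course. It stood at 10.1 TPM at day 1, 46.3 TPM at day 7, 91.6 TPM at day 10 and 61.6 TPM at day 14. The folds over day 1 were 4.59 (3.91 to 5.41), 9.06 (7.77 to 10.6) and 6.10 (5.21 to 7.17). At day 14 Jun was 1.49-fold below day 10 (1.39 to 1.59), a smaller step down than that of Fos. At day 10 the levels of Fos and Jun did not differ beyond counting error (90.5 to 98.5 TPM for Fos and 87.7 to 95.6 TPM for Jun). At days 7 and 14 Jun was the more abundant of the pair. An antisense gene, Junos, overlaps Jun in the annotation, and the sources used here do not say whether tags were counted by strand.

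Egr1 (13653), a zinc finger factor and a standard target of ERK signalling, was the most abundant of the 10 at day 1 and again at day 10. It stood at 77.7 TPM at day 1, 12.7 TPM at day 4, 33.7 TPM at day 7 and 263 TPM at day 10, and was not listed at day 14. Days 4 and 7 were thus low and day 10 high. Day 4 was 6.13-fold lower than day 1 (5.41 to 6.98), day 7 was 2.31-fold lower (2.11 to 2.52), and day 10 was 3.39-fold higher (3.19 to 3.60). From day 4 the level at day 10 was 20.8-fold higher (18.5 to 23.4). Of 333 genes listed as lower at both days 4 and 7, 2 were listed as higher at day 10, Egr1 and the secreted Wnt modulator gene Sfrp1, named after their values were seen.

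Egr4 (13656), an Egr family member with few transcripts here, had 60 tags at day 10 and 0 tags over the 3 libraries of day 1. Its level was 2.62 TPM (2.00 to 3.37) at day 10, at least 15.2-fold higher than the floor of 3 tags, or 0.172 TPM, at day 1. This bound leaves out counting error. The deposited log2 ratio of 8.03 enters 0 tags as 0.01 TPM and overstates what the tags can show.

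Nr4a1 (15370) shared the low day 4 of Egr1. It stood at 6.27 TPM at day 4 and 153 TPM at day 10, against 14.9 TPM at day 1, and was not listed at days 7 and 14. Day 4 was 2.37-fold lower than day 1 (1.93 to 2.92) and day 10 was 10.3-fold higher (9.09 to 11.7). Of 880 genes listed as lower at day 4, 29 were listed as higher at day 10, among them Egr1 and Nr4a1.

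The genes that encode regulators of mRNA decay or growth had folds under 4 at day 10, as had Egr1 and Klf6. Btg2 (12227) was listed at day 10 alone, at 12.3 TPM against 3.90 TPM at day 1, 3.16-fold higher (2.41 to 4.18). Zfp36 (22695) stood at 5.17 TPM at day 1, 19.0 TPM at day 10 and 14.1 TPM at day 14. Its folds were 3.67 (2.92 to 4.66) at day 10 and 2.72 (2.15 to 3.47) at day 14. The day 14 log2 ratio of Zfp36, 1.44, lay 0.15 under the median of all genes listed at that day, and a recentring on that median would turn its direction. No other listed value of the 10 genes changed direction under it. The antisense gene Gm44710 overlaps Zfp36, with the same limit as for Jun.

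Klf6 and Ier5 followed courses of their own, without a peak at day 10. Klf6 (23849), a Krüppel-like zinc finger factor, stood at 9.76 TPM at day 1, 28.1 TPM at day 7, 31.9 TPM at day 10 and 37.8 TPM at day 14. Its folds over day 1 were 2.87 (2.42 to 3.42), 3.27 (2.77 to 3.89) and 3.87 (3.28 to 4.59). Ier5 (15939), an immediate early gene whose product acts on heat shock factor in mammalian cells, was the member listed at all 4 later days. It stood at 3.27 TPM at day 1, 12.8 TPM at day 4, 29.9 TPM at day 7, 23.7 TPM at day 10 and 19.0 TPM at day 14. Day 7 was its highest day, 9.15-fold above day 1 (6.98 to 12.2), and day 10 was 1.26-fold below day 7 (1.13 to 1.41). Of the 10 genes, 8 thus had their highest listed level at day 10, as did 28.6% of the 2290 genes listed at day 10. For Fosb, Egr4, Btg2, Egr1 and Nr4a1, listed as higher at day 10 alone, this follows from the listing. Among genes listed at days 7, 10 and 14, 2 of 4 members, Fos and Jun, had their highest listed level at day 10. So had 22.5% of all 1093 such genes. Day 1 levels were included, so genes listed as lower at day 10, 597 of the 2290, could not be highest there. Such genes lower both shares, and none of the 10 members is among them.

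The order of the 10 genes also differed between days. At day 1 it ran from Egr1 through Nr4a1, Jun, Klf6, Zfp36, Btg2, Ier5, Fos and Fosb to Egr4. The counting intervals of Jun and Klf6, of Zfp36 and Btg2, of Btg2 and Ier5, and of Fosb and Egr4 overlapped. At day 10 it ran from Egr1 through Nr4a1, Fos, Jun, Fosb, Klf6, Ier5, Zfp36 and Btg2 to Egr4, and of the neighbours only the intervals of Fos and Jun overlapped. At day 14 Jun stood first and Fos last of the 5 listed.

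**Figure D2:**
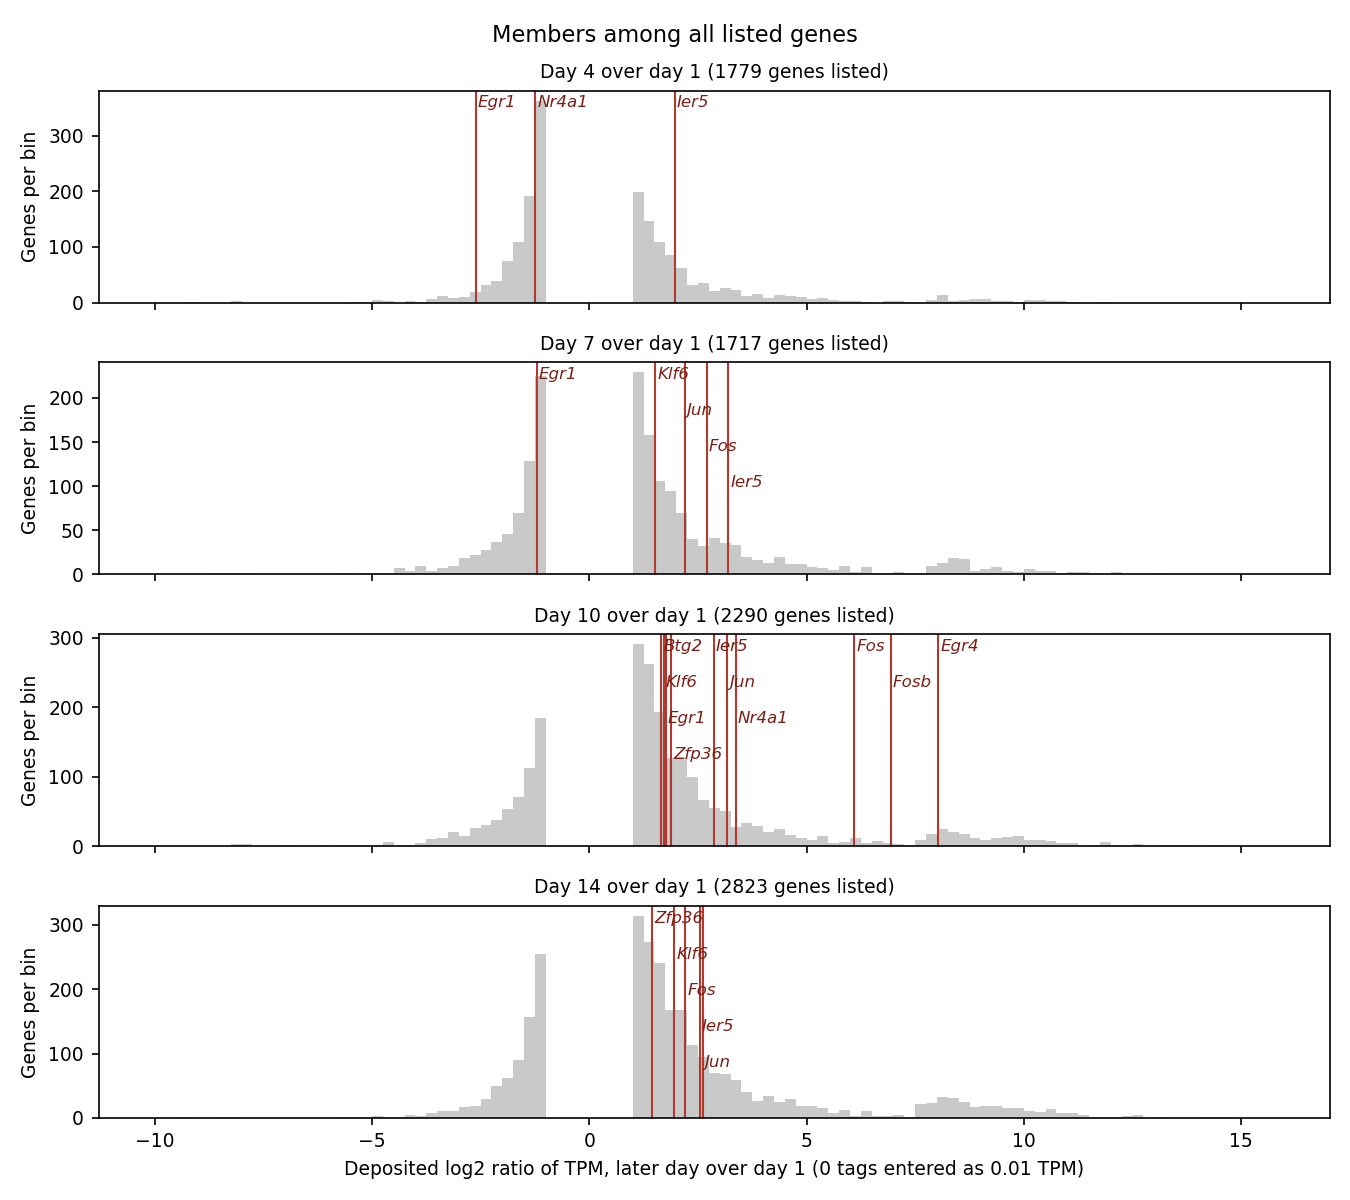
Number of genes per bin of the deposited log2 ratio of TPM, later day over day 1, for each later day (grey bars), with each listed immediate early gene as a red line. At day 10 the lines run from 1.66 for Btg2 to 6.93 for Fosb, with Egr4 at 8.03 because 0 tags are entered as 0.01 TPM; at day 14 they run from 1.44 to 2.61.

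Genes whose course was most like that of a member were taken by the smallest root mean square difference of the log2 ratios over the days at which the member was listed. For Klf6, over 3 days and among 1034 genes, these were the cyclin gene Ccnd2 and the metalloproteinase inhibitor gene Timp2 (difference 0.05 each) and the dynein light intermediate chain gene Dync1li2 (0.09). For Jun, over the same days, they were Peg10 (0.13), an imprinted gene of retrotransposon origin, Gm9580 (0.15) and the glycosyltransferase gene Mgat4a (0.15). For Ier5, over 4 days and among 550 genes, they were Afap1l1 (0.23), the keratin gene Krt8 (0.26) and Gas7 (0.30). Fos and Egr1 had no such close match. The nearest to Fos were 2610109H07Rik and the parathyroid hormone receptor gene Pth1r (1.38 each) and the cartilage collagen gene Col2a1 (1.46). The nearest to Egr1 among 620 genes were Sfrp1 (0.91), Dtx4 (1.45) and Nexn (1.62). Sfrp1 was low with Egr1 at days 4 and 7, at 9.94 and 9.89 TPM against 20.7 TPM at day 1. Its log2 ratio at day 10 was 1.74 and that of Egr1 was 1.76. At day 14 Sfrp1 stood at 224 TPM, against 68.8 TPM at day 10, whereas Egr1 was not listed, so the likeness covers days 4, 7 and 10 only. The comparisons all share the day 1 libraries.

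Other primary response genes were listed in part. Of 50 on that list, 21 were listed at any day. At day 4, 7 were higher and 2 lower, and at day 7, 10 higher and 0 lower. At day 10, 15 were higher and 0 lower, and at day 14, 11 higher and 1 lower. Of all genes listed at days 4, 7, 10 and 14, 50.5%, 63.5%, 73.9% and 74.4% were higher. These shares stand beside the counts of this list and of the lists that follow, from which nothing is read. The median log2 ratio of those listed at day 10 was 2.16, where that of all listed genes was 1.49. The latter includes 597 genes listed as lower, whereas all 15 of this list were higher, so the medians are not of like sets. Egr2, a paralog of Egr1, was listed at day 10 alone, at 4.63 TPM against 0.12 TPM at day 1, 40.3-fold higher (10.9 to 337). Gadd45g, a growth arrest gene, stood at 5.42 TPM at day 10 against 0 tags at day 1, at least 31.5-fold higher. Phlda1 stood at 2.07 TPM at day 1, 27.9 TPM at day 4, 101 TPM at day 7, 66.7 TPM at day 10 and 53.4 TPM at day 14, so that its highest day was that of Ier5. Jund, a Jun paralog, stood at 51.4 TPM at day 10 and 56.6 TPM at day 14 against 21.6 TPM at day 1, and was named after its values were seen. The other Fos and Jun family genes of the list, Fosl1, Fosl2 and Junb, were listed at no day. Myc was lower at days 4 and 14, at 38.2 and 28.9 TPM against 80.7 TPM at day 1. Ctgf, a matricellular gene, was lower at day 4, at 8.02 TPM against 36.4 TPM at day 1.

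**Figure D3:**
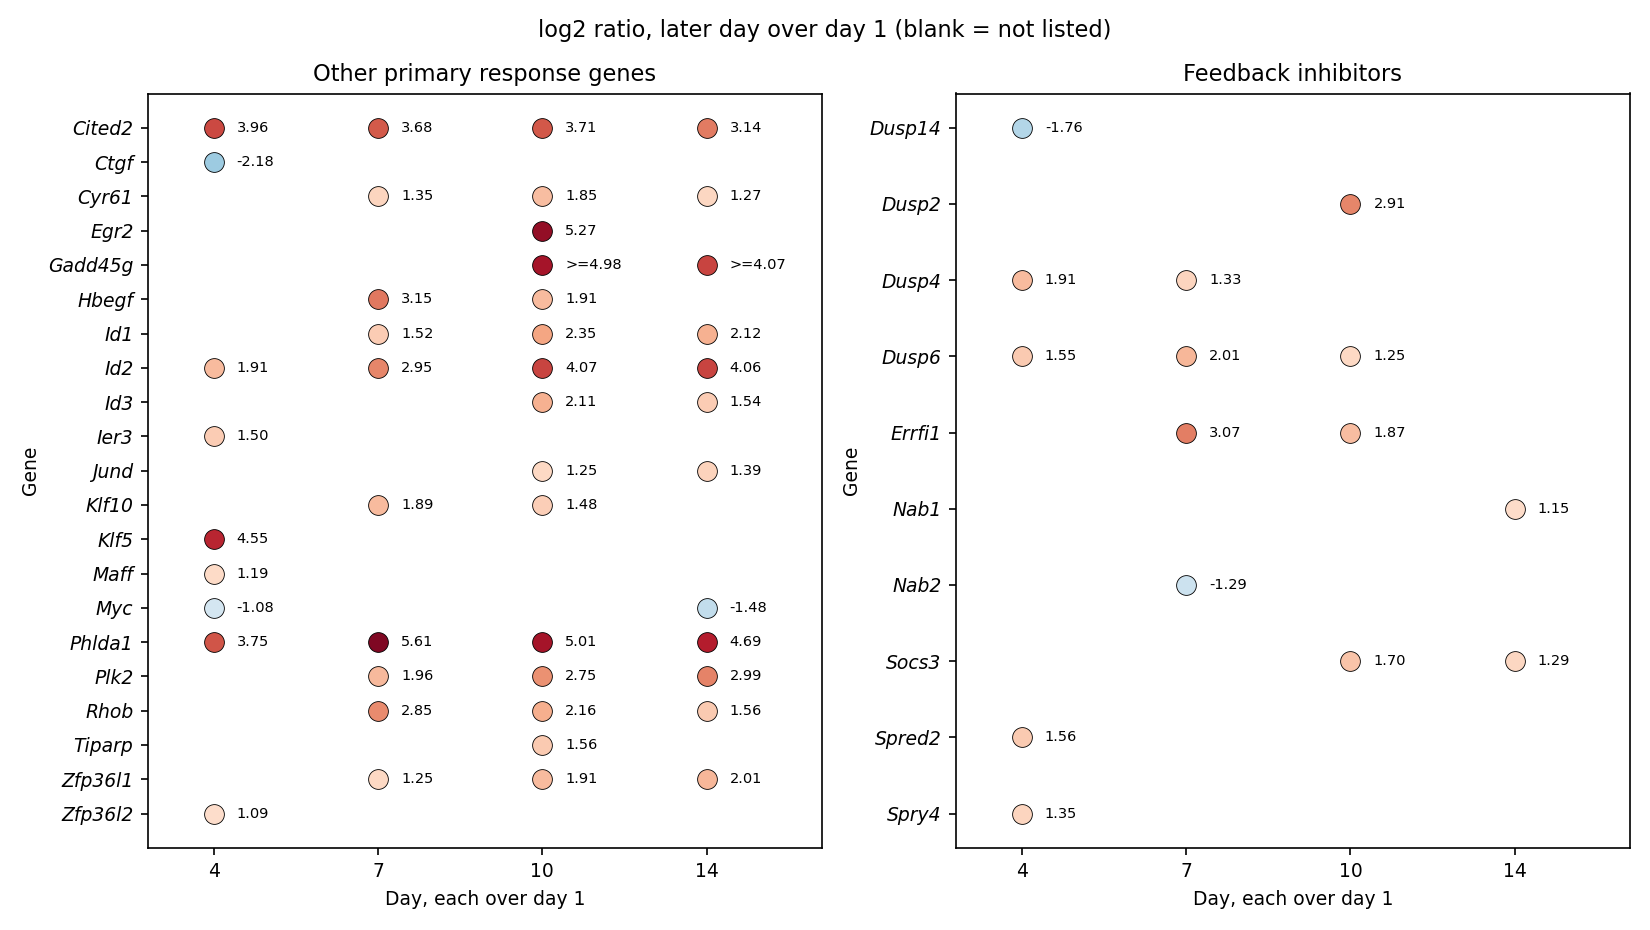
log2 ratio, later day over day 1, of the listed genes. Left are those of 50 other primary response genes, and right those of 22 feedback inhibitors of ERK, Egr or cytokine signalling. Blank cells were not listed, and colour runs from lower (blue) to higher (red). A ratio against 0 tags at day 1 is a lower bound. Egr2 and Dusp2 have a value at day 10 alone, with log2 ratios of 5.27 and 2.91.

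The ERK cascade is a main route from receptors to immediate early genes, and its feedback inhibitors are themselves induced by it. Of 22 feedback inhibitors, 10 were listed at any day. At day 4, 4 were higher and 1 lower, and at day 7, 3 higher and 1 lower. At day 10, 4 were higher and 0 lower, and at day 14, 2 higher and 0 lower. The list is wider than ERK itself, since Nab1 and Nab2 are corepressors of Egr factors and Socs3 inhibits cytokine signalling. The 2 higher at day 14 were Socs3 and Nab1. Dusp6, the ERK phosphatase gene, was highest at day 7, at 182 TPM against 45.1 TPM at day 1 (4.04-fold, 3.74 to 4.36), when Fos stood at 8.99 TPM. At day 10 Dusp6 was at 107 TPM. Dusp2, a nuclear phosphatase gene, was listed at day 10 alone, at 4.37 TPM against 0.58 TPM at day 1, 7.61-fold higher (3.97 to 16.4). Nab2, a corepressor of Egr1, was lower at day 7, a day at which Egr1 was lower too, at 17.6 TPM against 42.9 TPM at day 1. Errfi1, an inhibitor of the EGF receptor, was highest at day 7, at 16.8 TPM against 2.01 TPM at day 1.

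Of 42 receptors, kinases and cofactors upstream, 14 were listed at any day. At day 4, 6 were higher and 1 lower, and at day 7, 5 higher and 0 lower. At day 10, 9 were higher and 1 lower, and at day 14, 10 higher and 2 lower. Pdgfrb and Pdgfra, the PDGF receptor genes, and the ETS factor gene Elk3 were among the 4 higher genes with the largest ratios at each later day. At day 10 Pdgfrb stood at 11.2 TPM against 0.12 TPM at day 1, and Elk3, a partner of serum response factor, at 14.0 TPM against 0.86 TPM. In the deposited pathway column, Fos, Jun and Nr4a1 carry the MAPK signalling label, and 52 of the 68 genes so labelled at day 10 were higher, where 73.9% of all genes listed at that day were higher.

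Partners and effectors of the 10 genes were looked up as well. Of 12 other AP-1 partners, none was listed at days 4, 7 or 10, and 3 were higher at day 14, Ddit3 at 65.5 TPM, Jdp2 at 16.6 TPM and Atf5 at 44.1 TPM, against 24.6, 7.35 and 22.0 TPM at day 1. Of 23 genes that act in mRNA deadenylation and decay or regulate it, 2 were higher and 2 lower at day 4, and 2 higher and 1 lower at day 7. At day 10, 2 were higher and 0 lower, and at day 14, 1 higher and 0 lower. The lower ones were Elavl1 and Hnrnpd at day 4 and Elavl1 at day 7. The list holds regulators of mRNA stability as well as decay factors, so its counts give no direction of decay. Tob1, a relative of Btg2, was at 45.3 TPM at day 10 against 11.4 TPM at day 1, 3.97-fold higher (3.40 to 4.64). Btg2 is also a p53 target. Of 16 other genes, p53 targets and the p53 gene Trp53 itself, 0 were higher and 4 lower at both days 4 and 7. At both days 10 and 14, 1 was higher and 4 lower. Trp53 was among the lower ones at days 7 and 10, at 106 and 121 TPM against 245 TPM at day 1. Ccng1, a cyclin gene induced by p53, was at 20.5 TPM at day 10 against 60.8 TPM at day 1.

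Heat shock genes mark another kind of stress response. Of 16, 2 were higher and 4 lower at day 10, with Hsp90aa1 at 373 TPM against 845 TPM at day 1. The higher ones were the small heat shock genes Cryab, a gene of the lens and of muscle, and Hspb8. At day 4, 1 was higher and 5 lower; at day 7, 0 and 2; at day 14, 2 and 3.

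Markers of endothelium and blood had their highest summed level on the same day as Fos, although Runx1, one of them, was higher at day 7. Of 11, none was listed at day 4, 3 were higher at day 7 with a summed 22.6 TPM, 9 at day 10 with 194 TPM, and 7 at day 14 with 61.5 TPM. Of the 9 at day 10, 8 were at 0 tags at day 1. The vascular cadherin gene Cdh5 stood at 6.98 TPM at day 7, 24.0 TPM at day 10 and 8.98 TPM at day 14, against 0 tags at day 1. At day 14 the 7 listed at both stood at between 22.6% and 90.7% of their day 10 level. At day 14 Fos stood at 6.76% of its day 10 level, Jun at 67.3%, Zfp36 at 74.1%, Ier5 at 80.1% and Klf6 at 118%. The 6 cardiomyocyte markers listed at both days stood at 148% to 1345%. Of 8 smooth muscle markers, 2 were listed at day 10, Acta2 and Tagln, and both were higher at day 7 than at day 10. Fibroblast and matrix markers gave 2, 4, 5 and 7 of 10 higher at days 4, 7, 10 and 14, and 0 lower. Of 8 neural markers, 3, 3, 3 and 2 were lower on those days and 1 was higher at days 10 and 14. The part of any of these cells in the values of the immediate early genes was not tested.

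**Figure D4:**
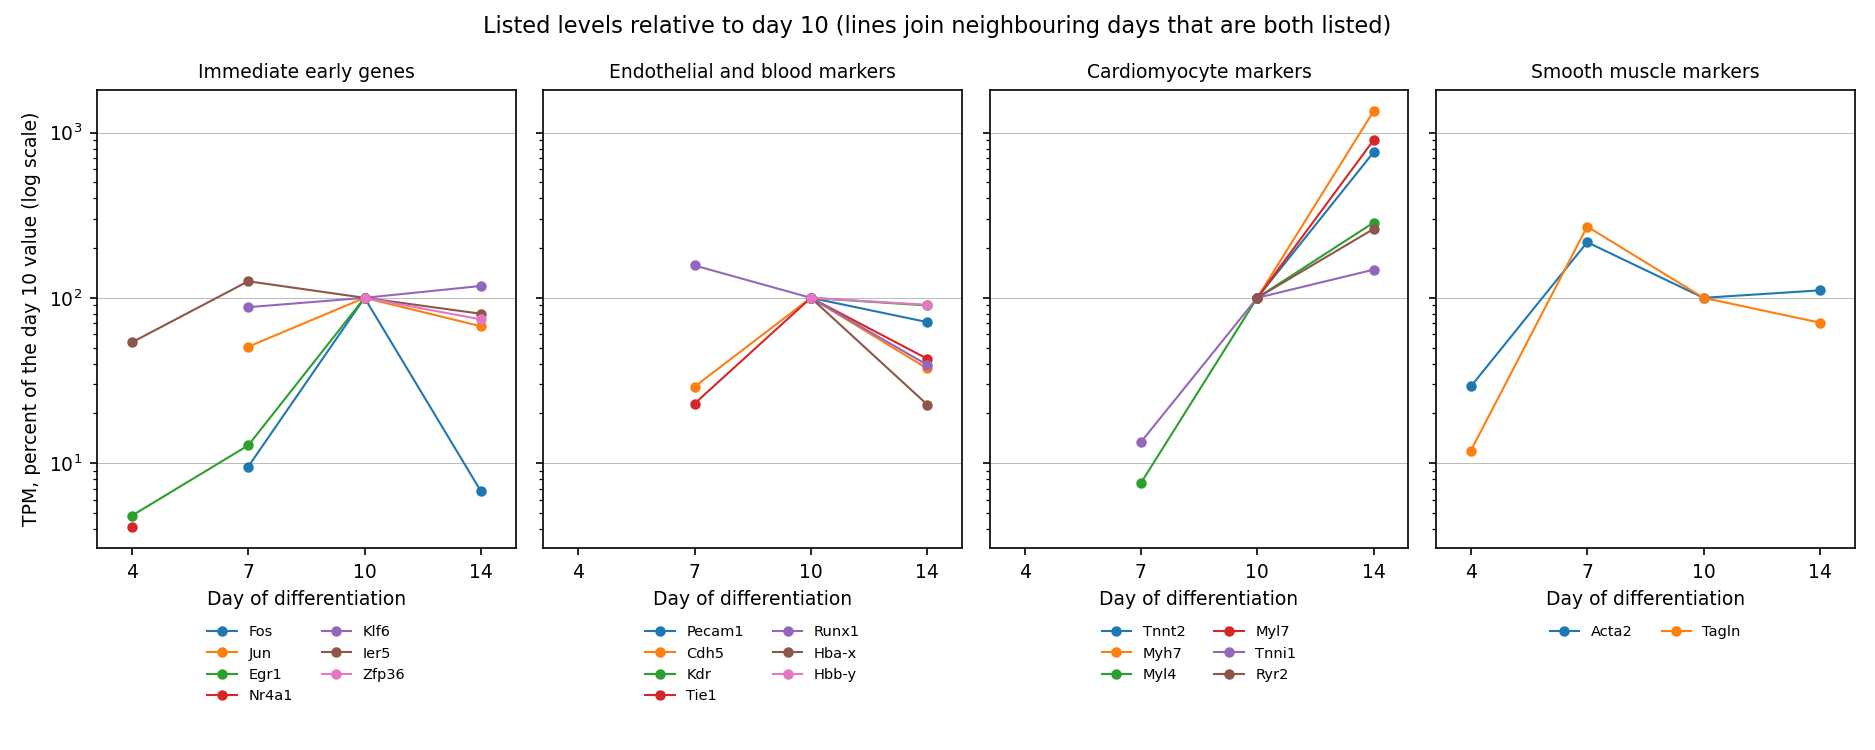
TPM as a percent of the day 10 value (log scale) at days 4, 7, 10 and 14 for immediate early genes, endothelial and blood markers, cardiomyocyte markers and smooth muscle markers listed at day 10 and at another later day; lines join neighbouring days that are both listed. At day 14 Fos is at 6.76% and the endothelial and blood markers at 22.6% to 90.7%, while the cardiomyocyte markers are at 148% or more.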

How the data were processed

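P19CL6 cells were profiled by digital gene expression at days 4, 7, 10, 14 and 1 with an Illumina tag profiling kit (protocol 2.1B, per the labels' protocols) on build mm9, per the submitters' processing notes. Which aligner and which test the authors used is not given in the sources used here. Samples were grouped by the day in their titles. In each of the 4 deposited tables a gene has the raw tag count and the TPM that the authors averaged over a day's libraries, and a deposited log2 ratio of those TPM values; 0.01 TPM stands for 0 tags and was read as 0. The deposited P-Value and FDR columns, treated as scores, were left unused, since the FDR exceeds 1 for 55.9% to 60.2% of genes. Per the design text, the tables are filtered by FDR.

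Mean counts times the number of libraries were whole within 0.03 for every gene, which gave the summed tags; group totals came from the ratio of mean count to TPM. Folds of summed tags, exact intervals at the 95% level and a floor of 3 tags over the libraries of a group were computed with Python 3.11.15, numpy 2.4.6, pandas 2.3.3 and scipy 1.17.1, and were tested on simulated data; matplotlib 3.10.9 drew the figures. No test between replicates was possible, because no column holds a single library. Named are all 10 genes, up to 3 genes per list, day and direction with the largest deposited log2 ratio, and the 3 genes most like each member listed on at least 3 later days, with at least 100 tags. The members and lists were chosen with earlier results of these data known. Promoter windows came from RefSeq (GRCm38.p6) and overlapping genes from GENCODE; no coordinate was taken from the authors' build. Alternatives were other fold limits, a pseudocount of 1, an abundance filter, recentring, raw ratios and 1 entry per symbol.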

Additional observations from a re-analysis of the deposited data

How the results depend on the processing

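No paired analysis was possible because the deposited columns carry no replicate numbers, and for the same reason no replicate could be left out. The number of the 10 genes counted depended on the limit used. An absolute log2 ratio of at least 2 kept 1, 3, 6 and 3 of them at days 4, 7, 10 and 14, against 3, 5, 10 and 5 listed, and kept 28.2%, 38.3%, 43.5% and 44.8% of all listed genes. Keeping the more abundant genes, split at a table's median, it was 1 at day 4, 6 at day 10 and 2 at day 14, where the split by construction drops the less abundant part of all listed genes. Recentred on the median of the listed genes (log2 1.02, 1.26, 1.49 and 1.59 at days 4, 7, 10 and 14), with a limit of 1, it was 3 at day 7, 6 at day 10 and 1 at day 14, with 61.7%, 52.1% and 53.4% of all listed genes kept. These medians are of filtered tables, so they are not a shift of all genes. Fewer genes are kept by construction under each of these limits. A difference of log2(TPM + 1) of at least 1, and 1 entry per symbol, gave the listed counts. Of the 23 folds over day 1, the deposited and the unscaled ratios left each within its counting interval. For Egr4 this says little, since its interval has no upper end. Its deposited ratio of 262 stands against the bound of 15.2. On the log2(TPM + 1) scale 4 of the 23 moved out of their intervals: Fos at day 7 (4.20-fold) and day 10 (40.1-fold), Fosb (31.8-fold) and Egr4 (3.62-fold) at day 10. The deposited, unscaled and log2(TPM + 1) ratios could turn no direction, by construction. Recentring turned that of Zfp36 at day 14, which lay 0.15 under the median of the listed genes. Depth limits most the day 1 values of Fosb, with 6 tags, and Egr4, with 0.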

Other observations

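Other genes were, like Fosb and Nr4a1, listed as at least 10-fold higher at day 10 and not listed at day 14. This limit was set after the members' values were seen, and genes with fewer than 100 tags at day 10 were left out. Besides Fosb and Nr4a1, 10 genes with a symbol met it: Akr1c13, Aplnr, Art5, Edn1, Egr2, Fgf17, Gja4, Lyl1, Myct1 and Tek. The 4 described first, Edn1, Tek, Gja4 and Lyl1, were picked after their values were seen, and no theme of the set was tested. Edn1, the endothelin gene, stood at 3.73 TPM at day 7 and 6.29 TPM at day 10, against 0 tags at day 1. The angiopoietin receptor gene Tek stood at 4.46 TPM at day 10 against 0 tags at day 1. The connexin gene Gja4 stood at 8.04 TPM at day 10 against 0.34 TPM at day 1, 23.3-fold higher (10.5 to 64.4). The blood regulator gene Lyl1 stood at 3.90 TPM at day 7, and at 8.56 TPM at day 10 against 0.57 TPM at day 1, 14.9-fold higher (7.94 to 31.6). Their levels at day 14 were not listed, which does not show that they had returned to those of day 1. Akr1c13, Aplnr, Art5 and Fgf17 had another course, with 4.94, 8.78, 4.46 and 5.77 TPM at day 10 against 7.88, 24.6, 10.0 and 23.6 TPM at day 7.

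Between days 7 and 10, Fos and Egr1 were among the genes with the largest steps. Of 1129 genes listed at both days with at least 100 tags at day 10, Fos ranked 3 (10.5-fold) and Egr1 ranked 5 (7.81-fold). This ranking was made after the members' values were seen. Genes not listed at day 7, such as Fosb and Nr4a1, could not enter it. The cardiac genes Myl4 (13.2-fold) and Tnni1 (7.47-fold) ranked 2 and 6. Jun, at rank 115, and Klf6, at rank 566, stood far below them. Ier5, at rank 961, was lower at day 10 than at day 7. Hba-x, an embryonic globin gene, stood at 26.7 TPM at day 14, against 118 TPM at day 10. Its step down ranked 3 among the 1589 genes listed at both days, with Fos at rank 1.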
